A study of Mus musculus with 8 samples.

Results

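The cytosolic ribosomal protein genes of the mouse retina were followed across 14 days of hyperoxia. A gene was taken as a member when a probe set of its own carried a single symbol made of Rpl or Rps and a digit, or the symbol Rplp0, Rplp1, Rplp2 or Rpsa. Rps6k kinases and symbols with -ps were left out. The rule found 50 of the 18193 genes measured by probe sets of a single symbol, read by 106 of 45037 probe sets. Of these 50, 23 encode or are named for the small subunit and 26 for the large subunit. The remaining member, *Rps19bp1*, encodes a protein that binds Rps19 and is no part of the ribosome, so it is in the list by its symbol only. *Rps4l* is annotated as a transcribed pseudogene by RefSeq (GRCm38.p6). Retinas came from adult C57BL/6J mice, 80 to 120 days old, kept under dim cyclic light (12 h at 5 lux). The groups were day 0 (controls) and 3, 7 and 14 days in 75% oxygen, with 2 arrays of the Affymetrix mouse genome type at each of the 4 times. Per the study's methods, the RNA of a time came from a pool of retinas of both sexes. Whether both arrays of a time used RNA of separate pools is not stated, so the spread between them, and every p, may be technical. Each value below is on the log2 scale, and each probe set had been centred on its own median, so a value of 0 is the middle of a gene's own range and no level can be compared between genes. For the same reason, the presence of retinal markers could not be checked by level. In whole retina, less RNA of a gene in each cell and fewer cells that use it cannot be told apart.

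Ribosomal proteins are the structural proteins of the cytosolic ribosome, which is built from a small subunit that reads mRNA and a large subunit that joins amino acids. Their mRNAs are among the most abundant of any cell, and most begin with a run of pyrimidines, the TOP sequence, through which mTOR signalling sets how strongly they are translated. The subunits are put together in the nucleolus with ribosomal RNA made by RNA polymerase I. In the retina, photoreceptors renew their outer segments daily and depend on constant protein synthesis.

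RefSeq start sites (GRCm38.p6) were matched for 44 of the 50 members, 37 of them with a single listed start. Windows of 300 bases, of which 250 lay before the start, were searched on both strands for 3 motifs. The ETS core CCGGAAG was present in 21 of 44 members (47.7%), against 15.0% of the genes on the array with a window. The tract CTTTCC, which occurs in TOP starts, was present in 23 of 44 (52.3%), against 30.2%. The TATA box TATAAA was present in 6 of 44 (13.6%), against 11.5%. The median day 3 difference from control was 0.31 in members with the ETS core and 0.26 in those without, and 0.20 and 0.24 at day 14. It was 0.20 in members with the CTTTCC tract and 0.34 in those without, and 0.20 and 0.24 at day 14. A motif match is a description of these letters, not of a bound factor. The windows shown belong to the 4 members with the widest and the 4 with the narrowest spread over the 8 arrays among 32 eligible members, whose single listed start lies at the edge of the annotated gene. Each runs from 80 bases before to 20 bases from the start site on, with motif matches in capitals, and all lie on the plus strand.
*Rpl37*, chr15:5116533-5116632: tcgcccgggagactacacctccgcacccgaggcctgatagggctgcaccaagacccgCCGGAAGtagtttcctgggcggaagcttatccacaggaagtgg
*Rpl14*, chr9:120571437-120571536: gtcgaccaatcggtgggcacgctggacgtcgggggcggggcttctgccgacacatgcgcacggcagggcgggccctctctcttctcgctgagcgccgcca
*Rpl22l1*, chr3:28805428-28805527: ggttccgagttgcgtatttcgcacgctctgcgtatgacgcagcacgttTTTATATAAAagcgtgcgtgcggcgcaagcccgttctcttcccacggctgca
*Rpl27*, chr11:101442165-101442264: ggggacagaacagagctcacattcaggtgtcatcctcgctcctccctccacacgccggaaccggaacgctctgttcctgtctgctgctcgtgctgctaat
*Rpl6*, chr5:121204421-121204520: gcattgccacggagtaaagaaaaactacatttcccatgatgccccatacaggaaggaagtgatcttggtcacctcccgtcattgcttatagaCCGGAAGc
*Rpl4*, chr9:64173307-64173406: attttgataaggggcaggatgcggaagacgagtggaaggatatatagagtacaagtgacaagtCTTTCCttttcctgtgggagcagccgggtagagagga
*Rps16*, chr7:28350609-28350708: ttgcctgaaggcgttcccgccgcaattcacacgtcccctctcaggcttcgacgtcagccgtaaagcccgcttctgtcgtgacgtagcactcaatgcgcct
*Rplp0*, chr5:115559387-115559486: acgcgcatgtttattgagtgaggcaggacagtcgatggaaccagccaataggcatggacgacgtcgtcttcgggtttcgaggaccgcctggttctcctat
The first 4 belong to the members with the widest spread (SD 0.78, 0.71, 0.56 and 0.44 over the 8 arrays), and the last 4 to those with the narrowest (0.11, 0.12, 0.13 and 0.13). In *Rpl22l1*, the capitals mark a TATAAA match on each strand, and the matches overlap. An ETS core stood in the printed window of *Rpl37* and of *Rpl6*, a member of each set.

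The arrays labelled as replicate 2 of day 3 and replicate 2 of day 14 stood apart from their partners in their control probe sets. Since each probe set was centred, these show shifts between arrays and no ratio of signals. The 3′ minus 5′ difference of the centred *Gapdh* probe sets was 1.19 and 1.43 on these arrays, against -0.32 to 0.12 on the other 6. The spiked poly-A controls were at 2.38 on day 3 replicate 1 and at or below 0.74 elsewhere. The study's own quality measures put the outlying *Gapdh* ratios on both day 14 arrays, whereas under the deposited labels they lie on 1 array of day 3 and 1 of day 14. Which of these is right could not be settled from the control probe sets. Reactive glia and microglia markers had medians of 0.86 and 1.08 on day 3 replicate 2. These medians were 1.08 and 1.09 on day 14 replicate 2, and at most 0.10 and 0.23 on other arrays. The study reports *Gfap*, of reactive glia, as unchanged at its earliest time in oxygen and highest at its last. It also reports close replicates at these times. As labelled, the glial medians differ between the replicates of both days. Whether an array was mislabelled was not tested. The label of day 3 replicate 2, and with it that of a day 14 array, is thus in doubt, and the arrays were kept as labelled. Leaving out replicate 2 of day 3 and of day 14 leaves 1 array for each of these days and does not remove this doubt. Day 3 then rests on replicate 1, the array with the high poly-A controls. Without these arrays, the median difference of the members was 0.37 at day 3, -0.16 at day 7 and 0.16 at day 14 against control. It was then -0.46 for day 7 against day 3, 0.32 for day 14 against day 7 and -0.16 for day 14 against day 3, with 0 members called by limma in each.

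With the arrays as labelled, the ribosomal protein genes were highest at day 3 and day 14 and lowest at day 7. The median of the 50 members was -0.02 and -0.14 on the control arrays (replicates 1 and 2) and 0.22 and 0.11 at day 3. It was -0.12 and -0.36 at day 7, then 0.06 and 0.18 at day 14. All day 3 and day 14 arrays thus lay above both controls, whereas only day 7 replicate 2 lay below both. The median of all 18193 genes stayed between -0.03 and 0.06. Day 7 replicate 2 was the lowest array for 38 of 50 members, and for 20.7% of all genes. Day 3 replicate 1 was the highest array for 27 members (20.3% of all genes) and day 14 replicate 2 for 13 (24.4%).

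**Figure D1:**
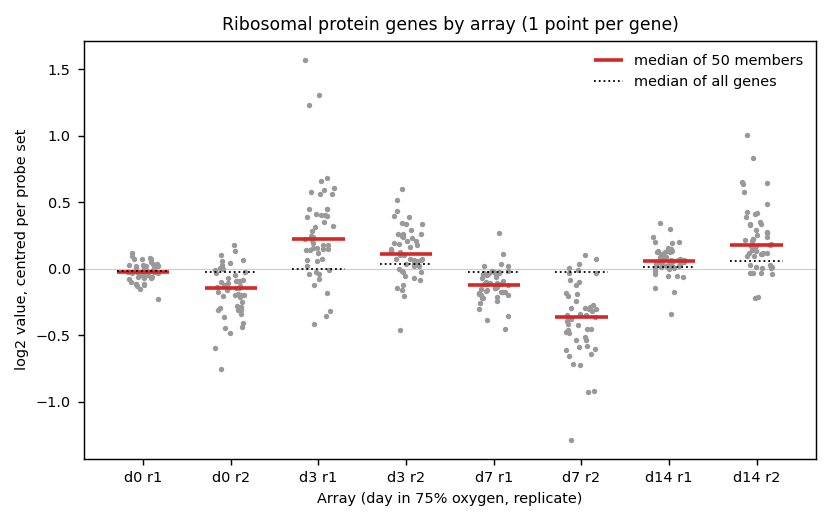
Each grey point is the centred log2 value of 1 of 50 ribosomal protein genes on 1 array (day, replicate), the red bar the median of the members and the dotted bar the median of all genes. The member median was highest on day 3 replicate 1 (0.22) and lowest on day 7 replicate 2 (-0.36), and the median of all genes stayed near 0.

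Most members followed a common profile across the arrays. The correlation of a member with the mean of the other members, over 8 arrays, had a median of 0.87 (range -0.71 to 0.99). It exceeded 0.8 for 30 of 50 members, where 9.15% of all other genes exceeded 0.8 with the member mean. All genes on an array share its scaling and RNA, so these are descriptions only. It was below 0 for 5 members, *Rps2*, *Rpl4*, *Rplp0*, *Rpl12* and *Rpl7a*. *Rps18*, a protein of the small subunit head, had the highest value of r, and *Rps2*, which lines the mRNA entry, the lowest.

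**Figure D2:**
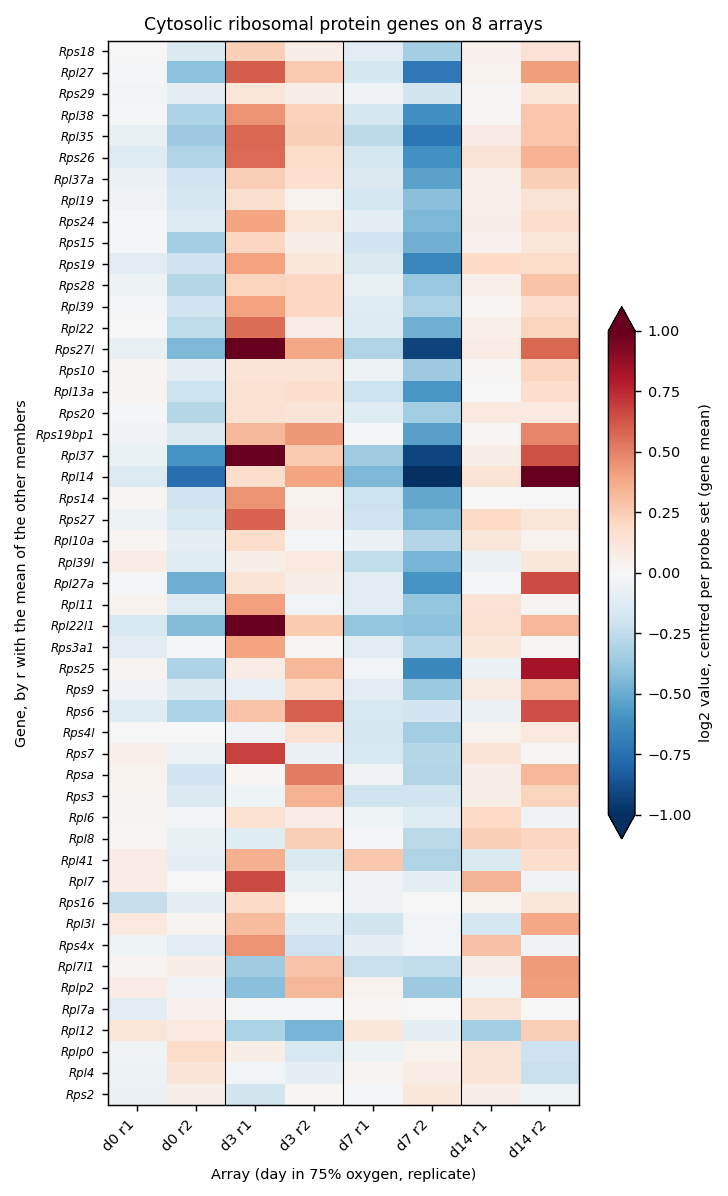
Centred log2 values (gene means over probe sets) of the 50 members in rows on the 8 arrays in columns (d, day; r, replicate), with rows ordered by their correlation with the mean of the other members and colours limited to values between -1 and 1. Day 7 replicate 2 was the lowest array for 38 members, and the 5 members with r below 0 fill the bottom rows.

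The first comparison asked which members differed from control after 3 days of oxygen. The median difference of the members was 0.26 (1.20-fold), and 44 of 50 were higher, against a median of 0.06 and 59.2% of all genes. The small-subunit median was 0.31 (22 of 23 higher) and the large-subunit median 0.22 (21 of 26 higher). No member or other gene passed the adjusted p of 0.05 (limma, Benjamini-Hochberg; lowest among members 0.427; percent called 0). At an unadjusted p under 0.05, 10 members were higher (all genes 6.38%) and 1 was lower (4.61%). Both day 3 arrays lay above both controls for 30 members (28.2% of all genes) and below them for 1 (16.1%). Differences of at least 2-fold higher were seen for 3 members (0.451% of all genes), *Rpl37*, *Rps27l* and *Rpl22l1*. The standard error of a member's difference between days ranged from 0.12 to 0.44 (median 0.18, 2 arrays a group), and limma's fit gave the same for every pair of days.

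*Rpl22l1*, a paralogue of *Rpl22* that can take its place in the large subunit, was at -0.15 and -0.43 in controls and 1.23 and 0.26 at day 3. Both day 3 arrays lay above both controls, with a difference of 1.04 ± 0.29 (SE, adjusted p = 0.427, limma). The replicates of day 3 differed by nearly as much as the days did. The difference was 0.56 without day 3 replicate 1, and 1.53 without replicate 2. In the latter fit it passed (adjusted p = 0.0457, limma), as the only member among 100 genes. *Rps27l*, a paralogue of *Rps27* known as a p53 target, was at -0.08 and -0.45 in controls and 1.31 and 0.39 at day 3, with a difference of 1.11 ± 0.35 (adjusted p = 0.427). *Rpl37*, a zinc-binding protein of the large subunit, was at -0.07 and -0.59 in controls and 1.57 and 0.26 at day 3, with a difference of 1.25 ± 0.44 (adjusted p = 0.427). In each of these genes day 3 replicate 1 was the higher array by far. Without replicate 1 or replicate 2 of day 3, the difference was 0.65 or 1.57 for *Rps27l* and 0.59 or 1.90 for *Rpl37*. *Rpl35*, next to the exit of the peptide tunnel, was at -0.07 and -0.36 in controls and 0.57 and 0.24 at day 3 (difference 0.62 ± 0.21). *Rps26*, at the mRNA exit, was at -0.13 and -0.30 in controls and 0.57 and 0.19 at day 3 (0.59 ± 0.20). *Rpl39*, inside the peptide tunnel, was at -0.02 and -0.20 in controls and 0.40 and 0.21 at day 3 (0.42 ± 0.14). These did not overlap with the controls either, and each had an adjusted p of 0.427.

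A few members had lower means at day 3. *Rpl12*, at the base of the stalk that recruits translation factors, was at 0.12 and 0.10 in controls and -0.32 and -0.46 at day 3. Its difference was -0.50 ± 0.20 (adjusted p = 0.447), and it was the only member with both day 3 arrays below both controls. With probe sets of several symbols added to its mean, the difference of *Rpl12* became 0.14. *Rplp0*, the stalk protein that binds Rpl12, was at -0.04 and 0.18 in controls and 0.06 and -0.16 at day 3. *Rpl4*, whose loop lines the peptide tunnel, was at -0.05 and 0.13 in controls and -0.02 and -0.09 at day 3. *Rps2* was at -0.06 and 0.06 in controls and -0.19 and 0.02 at day 3. These 3 overlapped with their controls, at differences of -0.12 ± 0.16, -0.10 ± 0.15 and -0.08 ± 0.13. *Rpl7l1*, a nucleolar relative of *Rpl7*, was at 0.02 and 0.07 in controls, and its day 3 arrays lay on either side of them, at -0.36 and 0.29.

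**Figure D3:**
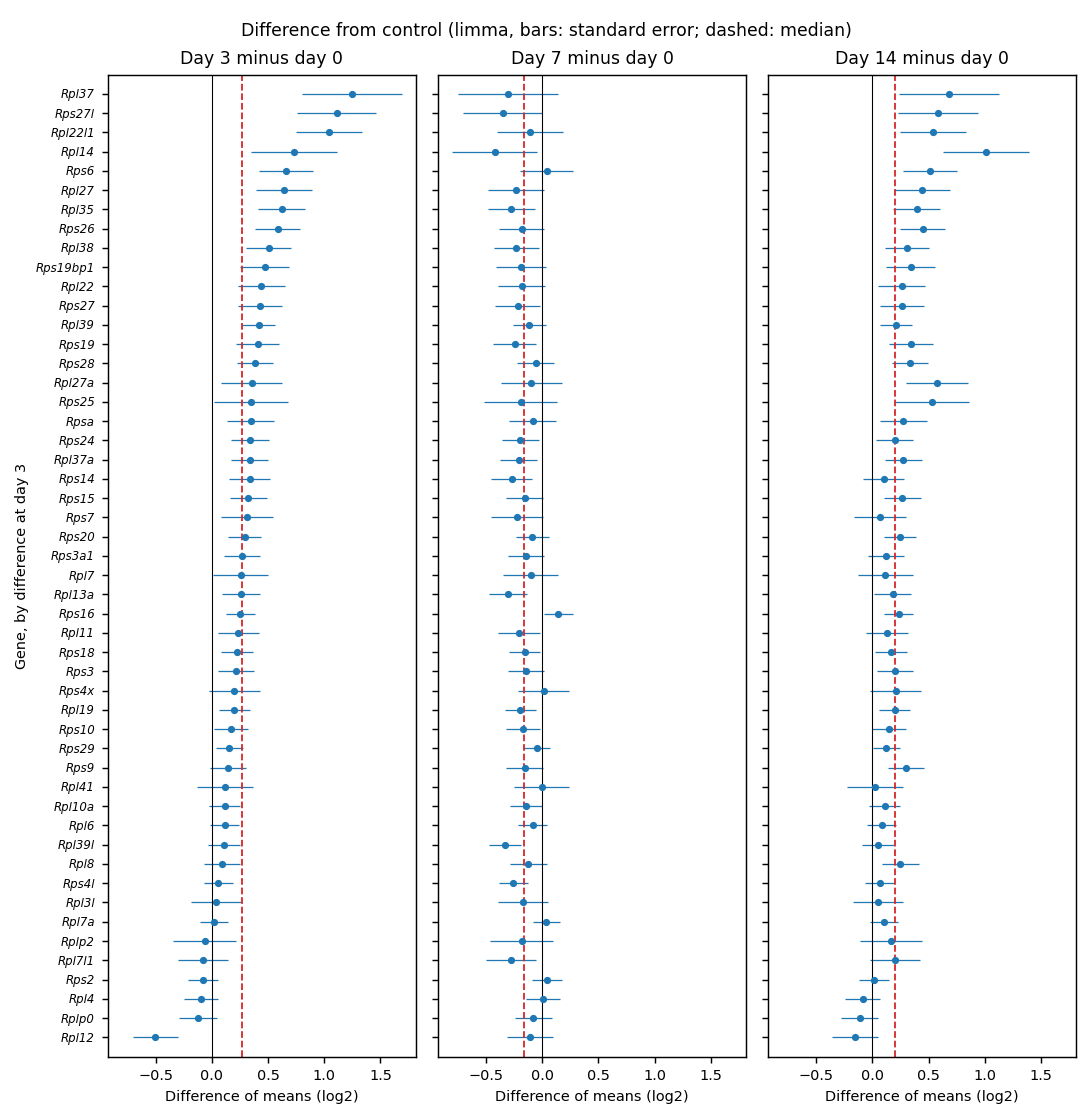
Difference from day 0 of each of the 50 members (rows, ordered by the day 3 difference) at day 3, 7 and 14 on the log2 scale, with the standard error of limma as bars, a solid line at 0 and a dashed line at the median of the members. The medians were 0.26, -0.16 and 0.20, and all 3 panels share the same control arrays.

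At day 7 the members lay slightly below control. The median difference was -0.16, and 44 of 50 members were lower, against a median of -0.01 and 51.9% of all genes. The small-subunit median was -0.16 (19 of 23 lower) and the large-subunit median -0.18 (24 of 26 lower). No member or other gene passed (limma; lowest adjusted p among members 0.9998; percent called 0), and at an unadjusted p under 0.05 the members numbered 0 in either direction (all genes 0.341% higher and 0.456% lower). Both day 7 arrays lay below both controls for 12 members (13.1% of all genes) and above for 1 (12.1%), *Rps16*. The count of 12 is 24% of the members, and without day 7 replicate 2 the median difference was -0.02 with 32% of members higher.

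The lower members with the smallest p at day 7 had small differences. *Rpl39l*, a paralogue of *Rpl39* best known from testis, was at 0.07 and -0.12 in controls and -0.25 and -0.46 at day 7, a difference of -0.33 ± 0.14. *Rps4l* was near 0 on both control arrays and at -0.17 and -0.34 at day 7, a difference of -0.26 ± 0.13. Both had day 7 arrays below both controls. *Rpl13a*, known for a further role in silencing inflammatory mRNAs, was at 0.03 and -0.21 in controls and -0.22 and -0.58 at day 7 (-0.31 ± 0.17). *Rps14*, which lies at the mRNA exit, differed by -0.27 ± 0.18, and *Rpl19*, which forms a bridge to the small subunit, by -0.19 ± 0.14. *Rps16*, a small-subunit protein near the decoding site, was at -0.23 and -0.09 in controls and at -0.03 and near 0 at day 7, a difference of 0.14 ± 0.13. That of *Rps16* became -0.09 when probe sets of several symbols were added. The other members with higher means, *Rps2*, *Rpl7a*, *Rps6*, *Rps4x* and *Rpl4*, differed from control by 0.04 or less.

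At day 14 most members were again above control. The median difference was 0.20 (1.15-fold), and 47 of 50 members were higher, against a median of 0.08 and 64% of all genes. All 23 small-subunit members were higher (median 0.24), as were 23 of 26 of the large subunit (median 0.19). No member or other gene passed (limma; lowest adjusted p among members 0.617; percent called 0). At an unadjusted p under 0.05, 1 member was higher (4.45% of all genes) and 0 were lower (3.56%). Both day 14 arrays lay above both controls for 33 members, or 66% (33.5% of all genes), and below for 0 (15.2%). *Rpl14* was the only member at least 2-fold higher (0.335% of all genes).

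*Rpl14*, a large-subunit protein, was at -0.13 and -0.76 in controls and at 0.13 and 1.0 at day 14. The difference was 1.01 ± 0.38 (adjusted p = 0.617), with no overlap but wide spread within both days, and it was 0.58 without day 14 replicate 2. *Rps6*, the small-subunit protein that S6 kinase phosphorylates downstream of mTOR, was at -0.12 and -0.31 in controls and at -0.06 and 0.65 at day 14. Its difference was 0.51 ± 0.24 (adjusted p = 0.627), falling to 0.16 without day 14 replicate 2. *Rpl27a* was at -0.02 and -0.49 in controls and at -0.01 and 0.65 at day 14, a difference of 0.57 ± 0.27, or 0.24 without day 14 replicate 2. The day 14 arrays of these genes were far apart, with replicate 2 the higher. Their probe sets of several symbols, kept outside the fit, gave smaller day 14 differences. These were 0.42 for *Rpl14* (mean of 5 probe sets), 0.17 for *Rps6* (9) and 0.21 for *Rpl27a* (1). *Rps26* was at 0.13 and 0.35 at day 14 (difference 0.45 ± 0.20), and *Rps28*, also of the small subunit, at 0.05 and 0.29 against -0.05 and -0.28 in controls (0.33 ± 0.16, or 0.22 without day 14 replicate 2). Their arrays lay above both controls too. The members with lower means were again *Rpl12*, *Rplp0* and *Rpl4*, at differences of -0.16 ± 0.20, -0.11 ± 0.16 and -0.09 ± 0.15. Each changed sign when 1 day 14 array was left out, *Rpl12* to 0.14, *Rplp0* to 0.06 and *Rpl4* to 0.09.

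The members differed more between day 7 and the other days in oxygen than they did from control. From day 3 to day 7 the median difference was -0.43, and 45 of 50 members were lower, against a median of -0.06 and 59.7% of all genes. No member or other gene passed (lowest adjusted p among members 0.285, limma; percent called 0). At an unadjusted p under 0.05, 27 members were lower (8.76% of all genes) and 0 higher (5.65%). Both day 7 arrays lay below both day 3 arrays for 37 members (28% of all genes) and above them for 3 (15.6%). At least 2-fold lower were 4 members (1.04% of all genes), *Rpl37*, *Rps27l*, *Rpl14* and *Rpl22l1*. *Rpl35* was 0.89 lower on the log2 scale at day 7, a difference of -0.89 ± 0.21, and *Rps27l* differed by -1.46 ± 0.35. Without day 3 replicate 2, a total of 5 members passed, *Rpl22l1*, *Rpl37*, *Rps27*, *Rps27l* and *Rps7*, of 521 genes in all. These 5 were singled out after their values were seen.

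From day 7 to day 14 the median difference was 0.37, and 46 of 50 members were higher, against 0.08 and 64.3% of all genes. None passed (lowest adjusted p among members 0.410, limma; percent called 0 over all genes). At an unadjusted p under 0.05, 18 members were higher (6.83% of all genes) and 0 lower (4.62%), 40 did not overlap in that direction (34.5%) and 0 in the other (14.4%). *Rpl14* alone was at least 2-fold higher (0.495% of all genes). The label of day 3 replicate 2 is in doubt, as given above, and its part in the next comparison was not tested. As labelled, day 14 and day 3 lay close, with a median difference of -0.06, and 35 of 50 members lower (46.6% of all genes). No member was at an unadjusted p under 0.05 (2.01% of all genes higher and 1.08% lower; lowest adjusted p among members 0.983, limma; percent called 0). The arrays did not overlap for 1 member higher (14.4% of all genes) and 3 lower (11.7%). All these comparisons share arrays with each other. An F test over all days passed 0 genes (percent called 0).

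The members sit at different places in the ribosome. Those of the stalk that recruits translation factors, *Rplp0*, *Rplp2* and *Rpl12*, all had lower means than control at day 3 and day 7. At day 7, so did 88% of the members. *Rplp1*, also of the stalk, was read only by a probe set of several symbols and stayed outside the fit. It differed from control by 0.22, -0.15 and 0.15 at day 3, 7 and 14. With such probe sets added, *Rpl12* differed by 0.14 at day 3. *Rplp2*, an acidic tail protein of the stalk, was at 0.08 and -0.04 in controls, -0.42 and 0.33 at day 3, 0.04 and -0.36 at day 7, then -0.04 and 0.42 at day 14. Its replicates thus lay on either side of the controls at both day 3 and day 14. *Rpl11*, which joins 5S ribosomal RNA in the particle known to bind Mdm2, was at 0.04 and -0.13 in controls and 0.41 and -0.03 at day 3. Its differences were 0.24 ± 0.18, -0.21 ± 0.18 and 0.13 ± 0.18 at day 3, 7 and 14, and none was free of overlap. The 4 measured proteins of the peptide exit were all higher at day 3 with no overlap (median 0.43; 60% of the members and 28.2% of all genes) and again at day 14 (0.24; 66% and 33.5%). All 4 had lower means at day 7 (-0.19). The 5 measured proteins of the mRNA exit had medians of 0.35, -0.18 and 0.28, and the 4 of the mRNA entry 0.19, -0.11 and 0.17. *Rpsa*, at the mRNA exit and also known as the laminin receptor, was at 0.03 and -0.19 in controls, 0.02 and 0.51 at day 3, -0.03 and -0.30 at day 7, then 0.06 and 0.33 at day 14. Only its day 14 arrays lay above both controls. The 12 measured genes of Diamond-Blackfan anemia, a disease of ribosome synthesis, were all above control on average at day 3 (median 0.36) and day 14 (0.26) and below it at day 7 (-0.20), as were 88%, 94% and 88% of the members. None of these genes passed (percent called as above).

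The 7 measured paralogues and relatives differed from control by -0.08 to 1.11 at day 3, and had lower means in all 7 at day 7 and higher means in all 7 at day 14. *Rps27l* and *Rpl22l1* had the largest day 3 values of this group, whereas *Rpl3l*, the form of *Rpl3* best known from muscle, was at 0.09 and 0.03 in controls and 0.31 and -0.12 at day 3. *Rpl3l* differed from control by 0.03 ± 0.22, -0.17 ± 0.22 and 0.05 ± 0.22 at day 3, 7 and 14. *Rpl39l* was near control at day 3 (0.10 ± 0.14) and day 14 (0.05 ± 0.14), and *Rps4l* likewise (0.06 ± 0.13 and 0.07 ± 0.13). *Rpl7l1* was at 0.07 and 0.42 at day 14, a difference of 0.20 ± 0.22, and was the lowest of the paralogues at day 3 (-0.08 ± 0.22). *Rps19bp1* was at -0.04 and -0.14 in controls, 0.32 and 0.44 at day 3, -0.02 and -0.54 at day 7, then 0.02 and 0.49 at day 14. Its day 3 and day 14 arrays lay above both controls, and its correlation with the mean of the other members was 0.93. *Rpl22*, the paralogue of *Rpl22l1*, differed by 0.44 ± 0.21 at day 3 against 1.04 ± 0.29 for *Rpl22l1*.

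The size of the swings differed between members as well. The widest SD over the 8 arrays belonged to *Rpl37* (0.78), *Rpl14* (0.71), *Rps27l* (0.69), *Rpl22l1* (0.56) and *Rpl27* (0.44), and the narrowest to *Rpl7a* (0.07), *Rps2* (0.09), *Rps29* (0.10), *Rpl6* (0.11) and *Rpl4* (0.12). *Rpl27*, a large-subunit protein, was at -0.01 and -0.41 in controls, 0.60 and 0.26 at day 3, -0.18 and -0.72 at day 7, then 0.03 and 0.42 at day 14. *Rpl7a*, which contacts ribosomal RNA in the large subunit, stayed between -0.11 and 0.14 on all arrays. Of the narrow genes, *Rps29* kept the common profile (r = 0.99), and *Rpl7a* did not (r = -0.01).

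Single probe sets of a gene could disagree. Of the 50 members, 26 were read by 1 probe set and 24 by 2 or more (at most 6). At day 14 the 6 probe sets of *Rps10* ranged from -0.34 to 0.51, the 3 of *Rps9* from -0.04 to 0.79, and the 6 of *Rps18* from -0.09 to 0.44. Those of *Rpl41* (4 probe sets) ranged from -0.24 to 0.26, and those of *Rpl7l1* (3) from -0.02 to 0.46. In *Rps10*, which lies at the mRNA entry, 5 of 6 probe sets were higher than control. Probe sets whose suffix is _at, which are designed to match 1 transcript, numbered 35, and those with _a_at, _s_at or _x_at, which may match several transcripts, 71. The _at probe sets had median differences of 0.20, -0.10 and 0.20 at day 3, 7 and 14, and the others 0.36, -0.20 and 0.23. Over all genes of the array, _x_at probe sets also lay higher at day 3 (0.13) and day 14 (0.17) than _at probe sets (0.03 and 0.04). *Rpl37*, *Rps27l* and *Rpl22l1*, the members at least 2-fold higher at day 3, were read by _a_at or _x_at probe sets alone. *Rpl14*, at least 2-fold higher at day 14, was read by an _at probe set. Ribosomal protein genes have many processed pseudogenes, so probe sets of related sequence may read several copies, and the part of this in the results was not tested. A further 25 ribosomal protein genes were read only by probe sets of several symbols, and 23 of these 25 were higher at day 3 (median 0.35), 1 at day 7 (-0.13) and 23 at day 14 (0.23). These 25 were added after the data had been seen.

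**Figure D4:**
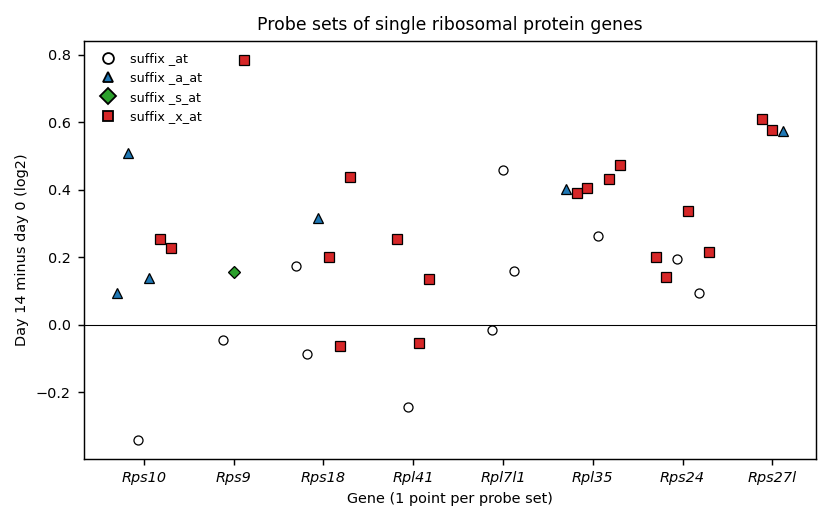
Day 14 minus day 0 on the log2 scale for each probe set of 8 members, 1 point per probe set, with the marker giving the suffix of the probe set. The 5 genes on the left are those whose probe sets differed most, *Rps10* from -0.34 to 0.51, and the 3 on the right are read by several probe sets that all lay above 0.

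Lists of genes that serve ribosome synthesis had smaller median differences than the ribosomal proteins, and none of their genes passed. *Fau*, whose product is cleaved to give a small-subunit protein, was at 0.01 and -0.22 in controls, 0.13 and 0.08 at day 3, -0.09 and -0.50 at day 7, then -0.01 and 0.16 at day 14. Of 71 measured genes of ribosome biogenesis, 45 were higher at day 3 (median 0.11), 15 at day 7 (-0.07) and 39 at day 14 (0.04). At an unadjusted p under 0.05, 6 were higher and 1 lower at day 3, and 0 higher and 3 lower at day 14. Of all genes, 6.38% were higher and 4.61% lower by this threshold at day 3, and 4.45% and 3.56% at day 14. The means of 59.2% of all genes were higher at day 3 and of 64% at day 14. *Ncl*, the nucleolar protein nucleolin, was at 0.08 and 0.36 in controls and -0.47 and -0.80 at day 14, a difference of -0.86 ± 0.23 (adjusted p = 0.595, limma). *Dkc1*, of the pseudouridine-forming complex, differed by -0.72 ± 0.23, and *Las1l*, of rRNA spacer cleavage, by -0.45 ± 0.14. The genes with the smallest p of this list thus lay below control while the list's median lay above it. Of 15 genes of RNA polymerase I, 9, 7 and 10 were higher at day 3, 7 and 14. *Ttf1*, which ends its transcription, differed by -0.39 ± 0.12 at day 14, and the subunits *Polr1c* and *Polr1d* by 0.41 ± 0.23 and 0.32 ± 0.16.

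Of 22 measured other mRNAs with a TOP start, 15 were higher at day 3 (median 0.22), 7 at day 7 (-0.06) and 17 at day 14 (0.15), and none passed. *Snhg8*, a host gene of a small nucleolar RNA, was at -0.15 and -0.46 in controls, 1.09 and 0.31 at day 3, and 0.15 and 0.57 at day 14. Its differences were 1.0 ± 0.29 at day 3 and 0.66 ± 0.29 at day 14, with no overlap at either. *Snhg12*, of the same kind, differed by 0.39 ± 0.15 and 0.45 ± 0.15 at these days. *Eef1d*, of the complex that reloads elongation factor 1, differed by 0.45 ± 0.17 at day 14.

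Translation factors lay near control as groups. Of 39 initiation factors, 23, 18 and 23 were higher at day 3, 7 and 14 (medians 0.06, -0.03 and 0.08). *Eif5b*, which joins the subunits, differed by -0.80 ± 0.23 at day 14, and *Eif4ebp1*, the brake on initiation that mTOR releases, by 0.72 ± 0.30. *Eif5* differed by -0.50 ± 0.19. Of 12 elongation and termination factors, 6, 4 and 6 were higher, and *Eef1b2* differed by 0.31 ± 0.24 at day 14 and *Eef2k* by 0.24 ± 0.19. Genes of mTOR and MYC control had medians of -0.03, 0.05 and -0.11 (9, 13 and 9 of 21 higher). *Max*, the partner of MYC, was at -0.19 and -0.32 in controls and 0.34 and 0.77 at day 7, a difference of 0.81 ± 0.19 (adjusted p above 0.99, limma). *Max* is given at day 7, whereas the genes were named by p at day 14. At day 7, 1 of the 21 genes was higher and 0 lower at an unadjusted p under 0.05 (limma; all genes 0.341% and 0.456%). *Mga* and *Larp4* differed by -0.40 ± 0.14 and -0.65 ± 0.24 at day 14.

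Most genes of ribosome rescue and quality control had means below control after 3 and 14 days in oxygen. This held for 13 of the 17 genes after 3 days (median -0.17) and for 12 after 14 days (-0.07). By contrast, the means of 59.2% and 64% of all genes were higher than control at these times. After 7 days the list lay near control, with 9 genes below it (median -0.008) and 51.9% of all genes. *Xrn1*, the exonuclease that degrades decapped mRNA, was at 0.12 and 0.43 in controls, -0.52 on both arrays at day 3, and -0.07 and -0.77 at day 14. *Gtpbp2*, which rescues stalled ribosomes, differed by -0.60 ± 0.16 at day 3 and -0.51 ± 0.16 at day 14, and *Tcf25*, of the complex that clears stalled chains, by -0.46 ± 0.16 and -0.42 ± 0.16. In the integrated stress response list, 8 of 17 were higher at day 3 and 11 at day 14. *Atf5*, a stress-induced transcription factor, was at -0.21 and -0.37 in controls, 0.52 and 0.46 at day 3, and 0.21 and 0.52 at day 14. Its difference was 0.78 ± 0.15 at day 3 (adjusted p = 0.427) and 0.66 ± 0.15 at day 14 (adjusted p = 0.588). *Eif2ak4*, a sensor kinase of this response, differed by -0.37 ± 0.13 at day 14, and *Vldlr* by -0.53 ± 0.20.

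**Figure D5:**
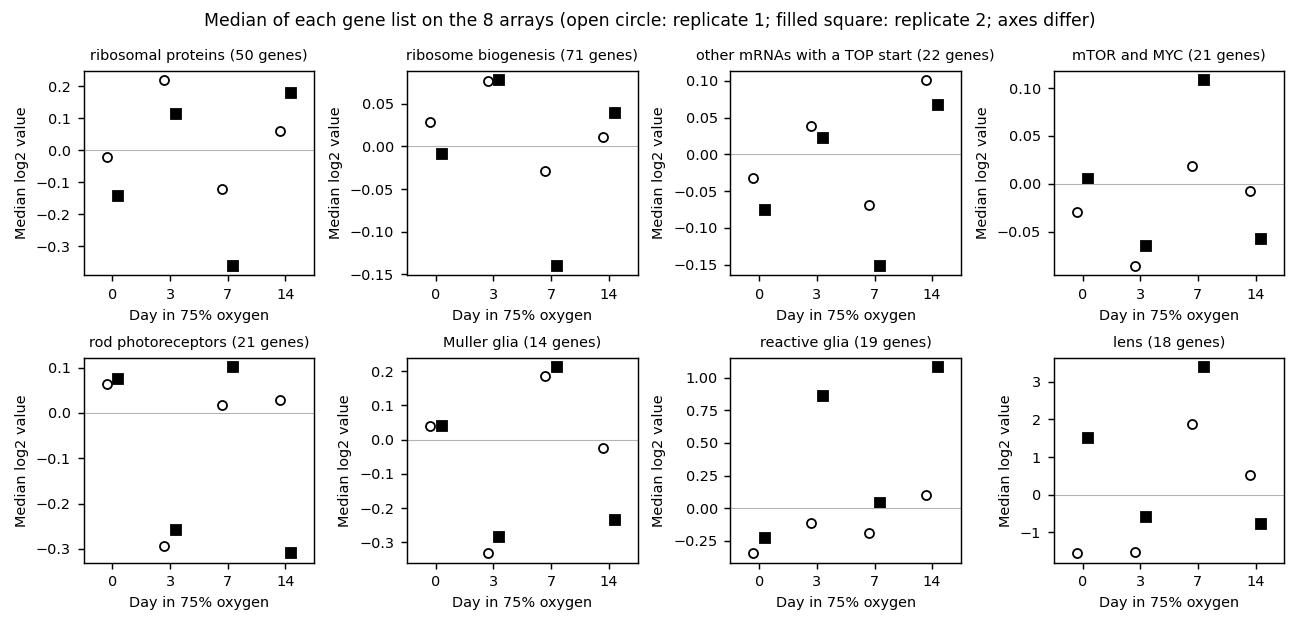
Median centred log2 value of each gene list on each array by day in 75% oxygen, with open circles for replicate 1 and filled squares for replicate 2; the vertical axes differ between panels. The lens list ranged from -1.55 to 3.39 and was highest on day 7 replicate 2, on which the ribosomal proteins were lowest (-0.36).

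Marker lists of other cells differed between the arrays as well. The median of 18 lens markers was -1.55 and 1.50 on the control arrays, -1.51 and -0.59 at day 3, 1.89 and 3.39 at day 7, then 0.53 and -0.78 at day 14. All 18 were higher than control on average at day 7, and the correlation of their median with the member mean was -0.87 over 8 arrays. In each of the 4 pairs of replicates, the array with more lens signal had the lower ribosomal protein median. Of 21 rod markers, 20 were lower at day 3 (median -0.32) and 19 at day 14 (-0.22), with a correlation of -0.86. Of 14 Müller glia markers, 12 and 11 were lower (-0.30 and -0.11), with a correlation of -0.91. The medians of reactive glia and of microglia were 0.86 and 1.08 on day 3 replicate 2 and 1.08 and 1.09 on day 14 replicate 2, against at most 0.10 and 0.23 on the other arrays. All 19 reactive glia markers were higher at day 3 and day 14 (0.66 and 1.02), with a correlation of 0.47. Among 19 microglia markers, 17 and 18 were higher (0.90 and 0.69), with a correlation of 0.64. Correlations were 0.78 for red blood cells (5 markers), 0.64 for lymphocytes (9) and 0.14 for endothelial cells and pericytes (14). Of 15 markers of cornea and surface epithelium, 14 were lower at day 3 (median -1.33) and 15 at day 7 (-1.17), with a correlation of -0.22. All 15 markers of the retinal pigment epithelium were higher at day 14 (0.65) and 13 were lower at day 3 (-0.37), with a correlation of -0.03. Of 14 bipolar cell markers, 10 were lower at day 3 (-0.42) and 9 at day 14 (-0.24), with a correlation of -0.64. Of 19 amacrine and ganglion cell markers, 12 were higher at day 3 (0.03) and 7 at day 14 (-0.07), with a correlation of -0.37. Of 9 cone markers, 5 were higher at day 3 (0.05) and 5 at day 14 (0.07), with a correlation of 0.19. Of all genes, 59.2% were higher at day 3 and 64% at day 14. No marker gene passed, and the part of these lists in the members' results was not tested.

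The genes outside the members with the most similar profile were found by correlation with the member mean over the 8 arrays. The 10 closest were *Nubpl*, *Atp5h*, *Ndufv2*, *Bambi*, *Eef1akmt1*, *Naa38*, *Znrd2*, *Hspe1*, *Prkra* and *Fis1*, each with r above 0.99. *Nubpl*, an assembly factor of respiratory complex I, was at -0.11 and -0.54 in controls, 0.60 and 0.19 at day 3, -0.33 and -1.06 at day 7, then 0.11 and 0.47 at day 14. *Ndufv2*, a subunit of complex I, differed from control by 0.54, -0.25 and 0.42 at day 3, 7 and 14. *Atp5h*, a subunit of ATP synthase, differed by 0.35, -0.26 and 0.26, and *Hspe1*, the mitochondrial co-chaperone, by 0.42, -0.31 and 0.36. *Bambi*, a decoy receptor of TGF-β signalling, was at 0.96 on day 3 replicate 1 and -1.40 on day 7 replicate 2.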

How the data were processed

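Log2 values deposited by the authors came from RMA, per the labels (version not given in the sources used here). No source describes a further centring that sets each probe set's median across arrays to 0. The methods describe MAS5 values from GCOS and GeneSpring, which were not used here. Because levels were removed, no filter on dim probes could be run, and the number of arrays limits the precision. Control probe sets (64) did not enter the fit. Probe sets of a single symbol (34945) were averaged by gene over 18193 genes. Probe sets with several symbols (932) or none (9160) were left out. A model of 4 group means was fitted to all 8 arrays by limma 3.58.1 under R 4.3.3, using lmFit and eBayes with 4 residual and 3.12 prior degrees of freedom, with Benjamini-Hochberg adjustment over all genes and a threshold of 0.05. A call of no overlap means that both arrays of a day lay on one side of both arrays of the other. A check on simulated data asked only whether planted median differences were recovered. It set no condition on the number of genes called. Promoters were searched in Python 3.11.15.

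The members and lists were chosen with earlier results of these data known. The text names, for each day, the 5 higher and 5 lower members with the smallest p, the 5 with the highest and the 5 with the lowest SD, all of the stalk, the 5S particle and the paralogues with *Rpsa*, the 5 whose probe sets differ most, up to 3 genes of each other list by p at day 14, and the 10 nearest genes. Further members are named where a count is small. Alternatives were 2 other array scalings, a replicate block, robust eBayes, a fit of the compared days alone, other uses of probe sets, leaving out relatives, and leaving out arrays. Where 1 array of a day is left out, the lone array is taken to vary as much as arrays of other days.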

Additional observations from a re-analysis of the deposited data

Results flagged for a closer look

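Set against the mean of the control arrays, both arrays of day 3 lay above control and both of day 7 below it in the median of the ribosomal protein genes (day 3 minus day 7, 0.41), and the same held for day 14 against day 7 (0.36). The ribosome biogenesis list showed this at day 3 (0.16) and day 14 (0.11) against day 7, as did translation initiation factors (0.13 and 0.14) and other mRNAs with a TOP start (0.14 and 0.19). Elongation and termination factors showed it for day 14 against day 7 (0.12), and genes of mTOR and MYC control the other way for day 3 against day 7 (-0.14). In the ribosome biogenesis list, day 14 replicate 1 lay only 0.0012 above the control mean. Its median there (0.011) was below that on day 0 replicate 1 (0.029). These differences between medians were not tested, and all share the control arrays.

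Control probe sets outside the comparisons gave values above those of the control arrays. Each was centred over the arrays, so these are shifts between arrays. For *Gapdh*, the 3′ probe set exceeded the 5′ one by 1.19 on day 3 replicate 2 and by 1.43 on day 14 replicate 2. The same difference for β-actin was 1.24 on day 14 replicate 2, and 1.0 on day 3 replicate 2. For the spiked poly-A controls it was 0.99 and 1.31 on day 3 replicate 2 and day 14 replicate 2, and their level was 2.38 on day 3 replicate 1.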

How the results depend on the processing

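With 2 arrays a day, the spread of 1 array decides much. The median difference of the members kept its direction under every alternative run for each pair of days except day 14 against day 3. Leaving out 1 array at a time gave medians of 0.17 to 0.37 at day 3, -0.29 to -0.018 at day 7, 0.14 to 0.28 at day 14, -0.55 to -0.30 for day 7 against day 3, -0.12 to 0.01 for day 14 against day 3 and 0.24 to 0.49 for day 14 against day 7. The share of members higher was then 84% to 88%, 10% to 32%, 90% to 94%, 10% to 18%, 26% to 52% and 92% to 94%. The lowest day 7 median and the weakest (-0.018) came without day 7 replicate 1 and replicate 2 respectively. Members called ranged from 0 to 1 at day 3 and from 0 to 5 for day 7 against day 3, and all genes called from 0 to 100 and from 0 to 521, with the higher counts without day 3 replicate 2. Without day 7 replicate 1, all genes called ranged up to 1 at day 7, for day 14 against day 7 and in the F test; elsewhere 0 were called.

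With only _at probe sets (27 members), 18.5% of members were higher at day 7, 22.2% for day 7 against day 3 (median -0.31) and 55.6% for day 14 against day 3. With probe sets of several symbols (75 members, added after seeing the data), 6.67% were higher at day 7 and 5.33% for day 7 against day 3, and *Rpl12* (0.14 at day 3, 0.15 at day 14), *Rps16* (-0.087 at day 7) and *Rps6* (-0.057 at day 7) changed sign. The median over probe sets turned *Rpl7l1* to 0.030 at day 3, and leaving out both arrays that stand apart turned *Rplp0* to 0.055 and *Rpl4* to 0.089 at day 14. Leaving out 1 array also turned *Rps2* (-0.18 to 0.022) and *Rpl7l1* (-0.40 to 0.24) at day 3, *Rps2* (-0.019 to 0.11), *Rpl7a* (-0.041 to 0.12), *Rps6* (-0.058 to 0.14) and *Rps4x* (-0.020 to 0.047) at day 7, and *Rpl12* (-0.45 to 0.14), *Rplp0* (-0.28 to 0.055) and *Rpl4* (-0.26 to 0.089) at day 14. The cause of these changes was not tested.

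The correlation of same-numbered deviations from the day means ranged from -0.30 to 0.46 over the 6 pairs of days. The value of 0.46 was for day 14 against day 3, the days whose replicate 2 arrays stood apart. Whether replicate numbers pair the arrays is not settled by these mixed values. With the replicate block, 0 genes were called. The medians of 0.26, -0.16 and 0.20 cannot change under the block, since each number holds 1 array of each day.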
